A study of Bos taurus with 106 samples.

Results

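The genes described here make the protein machinery that binds, splices and unwinds RNA: the hnRNP and SR proteins, the proteins of the spliceosomal snRNPs, and the DEAD-box (DDX) helicases. They were followed in the liver of Holstein cows on 2-colour cDNA arrays, on which each element is a spotted cDNA. An element was taken where its single gene symbol starts with HNRNP, SRSF, SFRS, SF3A, SF3B, SNRP, LSM, PRPF or DDX, or is SYNCRIP, CELF2, U2AF1 or U2AF2. The rule found 85 elements for 59 genes, among 5598 elements with 1 gene symbol and 8208 elements on the array. All 85 passed the filter on missing values and had a value in every sample. Of the 59 genes, 41 were on the array with 1 element, 12 with 2, 4 with 3 and 2 with 4, and elements of the same gene carry a letter here (SYNCRIP-a to SYNCRIP-d).

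The study asked how the plane of nutrition before calving bears on hepatic transcripts. Of the 8 cows, 4 ate ad libitum in the dry period and took in about 120% of the requirement set by the National Research Council (NRC), and 4 were restricted to about 80% of it. All 8 cows received the same moderate-energy diet (1.60 Mcal/kg) through a dry period of 65 days. Samples of liver came from days -65, -30, -14, 1, 14, 28 and 49, counted from calving. The ad libitum group had 3 cows on day -65, 2 on day 49 and 4 on the other days, and the restricted group had 4 cows on every day, which gave 53 cow-days. The same animals were sampled repeatedly, so days of a cow are not separate animals. The sources used here give neither the genotypes nor the ages of the cows.

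Pre-mRNA splicing is carried out by the spliceosome, which assembles on each intron from snRNPs, small nuclear RNAs bound by proteins. U2AF and the SF3 subunits of the U2 snRNP recognise the 3′ end of the intron, SNRP and LSM proteins form rings on the small nuclear RNAs, and PRPF proteins belong to the particles that join later. SR proteins as a rule favour the use of an exon and hnRNP proteins often oppose it, while DDX helicases remodel RNA and RNA-protein complexes in the nucleus, the nucleolus and the cytoplasm. Most of these proteins are expressed in many cell types, and the splicing of many transcripts of metabolism depends on them. Roles are given from work in human cells and yeast.

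Each liver sample was hybridised with a reference of pooled tissues that left out liver, in both dye orientations. A value here is the log2 ratio of liver over reference after each array was centred on its median, so 0 is the median element of the array. The correlation between both orientations of a cow-day, over elements, averaged 0.852, 0.886, 0.668, 0.616, 0.669, 0.863 and 0.897 on the days in order, and was under 0.6 in 7 cow-days, all on days -14, 1 and 14. On those days it was lower in ad libitum cows (0.61, 0.52 and 0.62) than in restricted cows (0.73, 0.71 and 0.71). Markers of liver cell types moved over the same days. The mean of 4 hepatocyte marker elements was 4.82, 4.51, 3.74, 3.57, 3.92, 4.73 and 4.51 on the days in order, and remained far above 0 throughout. The mean of 9 endothelial marker elements lay between 1.07 (day 1) and 1.66 (day -65), and that of 9 stellate cell and fibroblast marker elements between -2.05 (day -65) and -1.34 (day 1). Because whole tissue was sampled, fewer cells of a type and less RNA per cell cannot be told apart. The means of these lists all lay nearer 0 on days -14, 1 and 14, which were also the days of lower dye agreement. The part of array quality in the marker means was not tested.

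Most of the splicing and hnRNP elements gave a lower ratio in liver than the median element of the array. Averaged over the groups, 12 of the 85 lay above 0 (14.1%), against 50.4% of all 8061 tested elements, and the median was -0.44. None of the 9 SR protein elements and 1 of the 22 hnRNP elements lay above 0. The elements above 0 included HNRNPDL-b (1.11), PRPF31-c (0.77), DDX24-a (0.53) and LSM4 (0.21). A ratio depends on the reference as well as on the liver, so it ranks a transcript against the pooled tissues and not against other transcripts.

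Over the 7 days, 30 of the 85 elements differed between days, as the plot of day means by role shows. They were called by limma's F test at a Benjamini-Hochberg adjusted p under 0.05, and the same test called 43.4% of all elements. By role these were 9 of 22 hnRNP, 3 of 9 SF3 and U2AF, 3 of 4 SNRP, 3 of 7 LSM and 2 of 8 PRPF elements. They also included 1 of 9 SR elements, 1 of 2 CELF2 elements, 2 of 11 helicases listed as tied to splicing or mRNA export and 6 of 13 other DDX helicases. DDX19B, a helicase of the nuclear pore, was counted among these 13. The smallest adjusted p from this test belonged to CELF2-a (1.3e-10), SRSF9 (8.93e-08), SYNCRIP-b (8.57e-07), SF3B4 (4.04e-06) and DDX19B (6.1e-06). The share of elements called was below the background of the array. With the days of closest dye agreement alone (-65, -30, 28 and 49), 7 elements were called, and 10.3% of all elements.

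**Figure D1:**
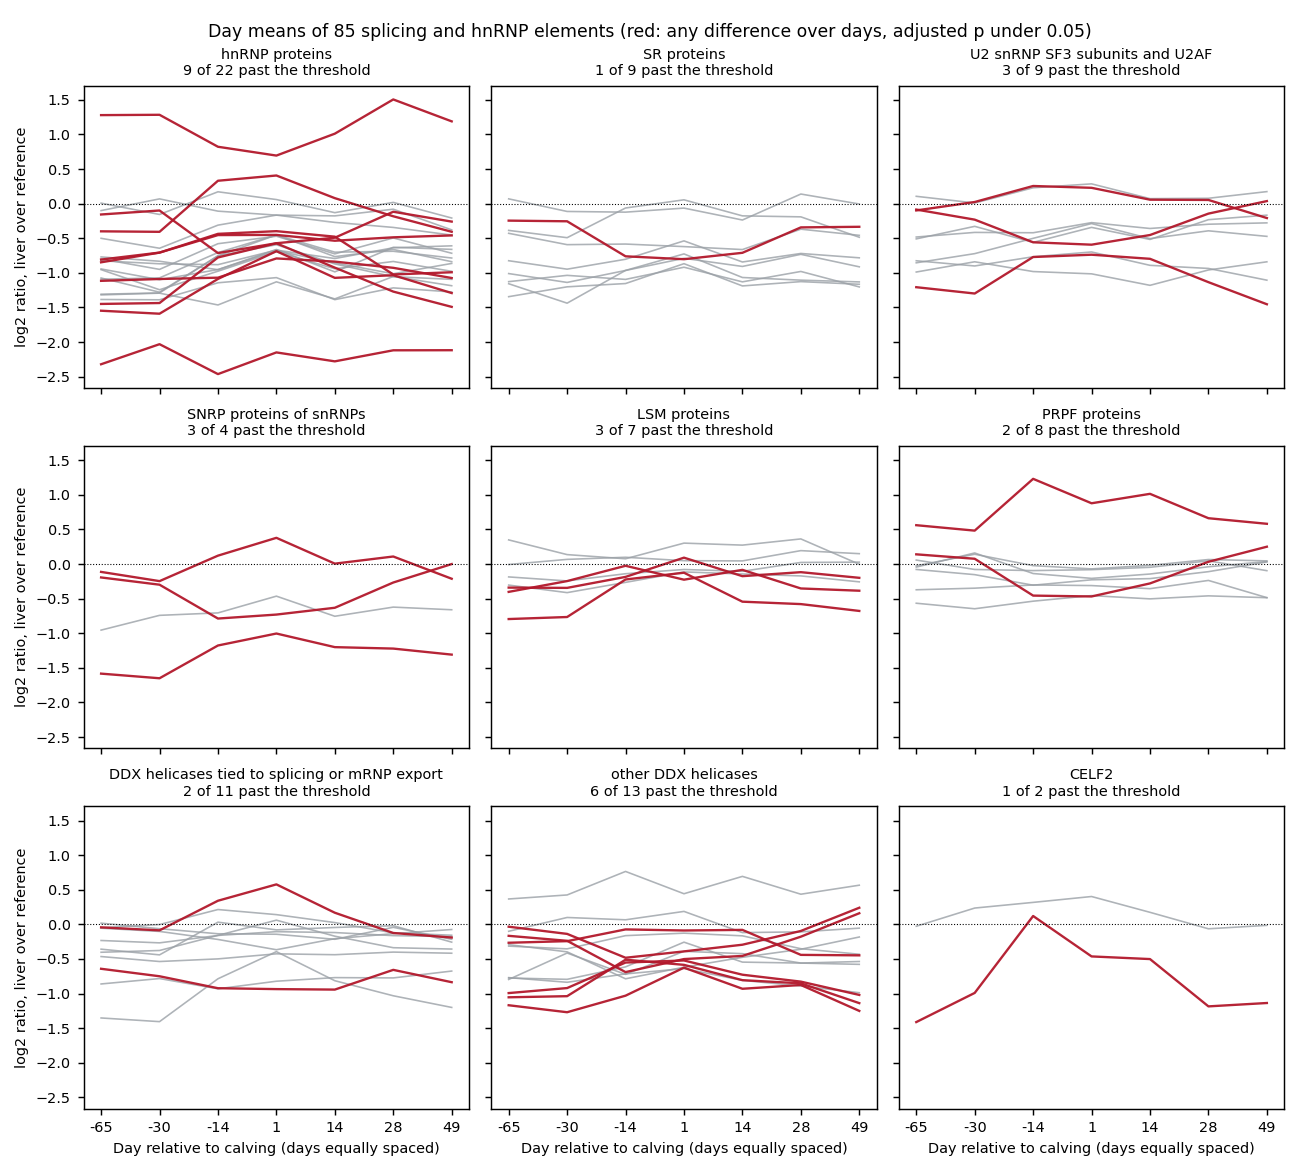
Mean log2 ratio of liver over reference (vertical axis) by day relative to calving (horizontal axis), with a panel for each role and a line for each element, averaged over the cows of the day and red where the F test over days passed. Most lines lie below 0, and CELF2-a has the widest range of day means (1.53).

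The main step came in the late dry period, between day -30 and day -14. At day -14, 10 elements were higher and 6 were lower than at day -30 (limma, adjusted p under 0.05), where 19.5% of all elements were higher and 14% lower. The median change was 0.13 over the 85 elements and 0.06 over all tested elements. The split depended on the scaling: without centring 35 were higher and 0 lower, with a median of 0.48 over all elements, and with arrays scaled to one spread 24 were higher and 4 lower. It was 15 higher and 15 lower with liver in Cy3 alone, and 22 higher and 4 lower with liver in Cy5 alone. The split of all elements moved too. Of 8061 elements, 3344 were higher and 117 lower without centring, and 1817 were higher and 1217 lower with scaling. With liver in Cy3 alone 1774 of 8134 were higher and 1525 lower, and in Cy5 alone 1503 of 8142 were higher and 818 lower. Of the 16 called elements, 6 passed in each orientation alone (CELF2-a, PRPF31-c, LSM12, HNRNPL, SYNCRIP-b and HNRNPA0-a), 7 in Cy3 alone but not in Cy5, and 3 in Cy5 alone but not in Cy3. Of the 4 hepatocyte marker elements 3 were lower at day -14 than at day -30, 5 of 9 stellate cell and fibroblast elements were higher, and 3 of 9 endothelial elements were lower and 1 higher. Of 15 macrophage elements 3 were higher and 4 lower, 1 of 6 T and NK cell elements was higher, and so was the 1 neutrophil element (mean 1.93 at day -14 and 0.96 at day -30). The part of these markers, and of the looser dye agreement at day -14, in the changes of the splicing elements was not tested.

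CELF2, an RNA-binding regulator of alternative splicing, had the widest day range of the 85 elements. CELF2-a was -0.38, 0.09 and 0.47 (lowest, median and highest of 8 cows) at day -14, against -1.41, -0.91 and -0.68 at day -30. The 2 days did not overlap, and CELF2-a rose in 8 of 8 cows. The change was 1.11 ± 0.15 (SE) on the log2 scale (limma, adjusted p = 3.41e-07). The other element, CELF2-b, ranged from -0.38 to 1.16 at day -14 and from -0.07 to 0.69 at day -30, and its change of 0.08 did not pass the test.

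Among the snRNP proteins, PRPF31, which the U4/U6.U5 particle needs to form, showed the largest increase. PRPF31-c was 0.84, 1.14 and 1.70 (lowest, median and highest) at day -14, against 0.19, 0.42 and 0.98 at day -30. It rose in 8 of 8 cows, by 0.75 ± 0.14 (SE; limma, adjusted p = 1.2e-04), although the ranges met. PRPF31-a and PRPF31-b stayed between -0.65 and -0.45 and between -0.48 and -0.24 in every day mean, and neither passed the F test. PRPF6-b, an element of a protein that bridges the same particle, was -1.82, -0.48 and 0.95 at day -14, against -0.03, 0.07 and 0.23 at day -30. It fell by 0.53 (limma, adjusted p = 0.0413), but in 6 of 8 cows, and the spread between cows was wide at day -14 (SD 0.809, against 0.0922 at day -30).

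SF3B4, the SF3b subunit that contacts the pre-mRNA near the branch point, rose by 0.53 ± 0.12 (SE; limma, adjusted p = 6.75e-04). Its values were -1.09, -0.79 and -0.27 at day -14, against -1.57, -1.32 and -0.94 at day -30, and it was higher in 7 of 8 cows. SNRPA, protein A of the U1 snRNP, rose by 0.47 (adjusted p = 0.0201 in the same fit) and was higher at day -14 in 8 of 8 cows. The Sm ring proteins went opposite ways. SNRPD3 rose by 0.37 (limma, adjusted p = 0.0166; 6 of 8 cows) and SNRPD2 fell by 0.49 (limma, adjusted p = 0.0118; 6 of 8 cows), although with liver in Cy5 alone its difference was 0.08. LSM12, an LSM-domain protein outside the rings of the small nuclear RNAs, was -0.64, -0.26 and 0.25 at day -14, against -0.98, -0.77 and -0.52 at day -30. It rose in 8 of 8 cows, by 0.54 (limma, adjusted p = 4.05e-04).

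Of the 24 DDX elements, 2 rose and none fell at this step. DDX19B, which releases proteins from mRNA at the nuclear pore, was -0.80, -0.51 and -0.30 at day -14, against -1.14, -1.05 and -0.88 at day -30. The days did not overlap, and DDX19B rose by 0.53 ± 0.10 (SE; limma, adjusted p = 1.6e-04). DDX24-c, an element of a nucleolar helicase, rose by 0.37 (adjusted p = 0.00691 in the same fit), also in 8 of 8 cows and without overlap. Its change was 0.71 with liver in Cy3 alone and 0.03 with liver in Cy5 alone (limma, adjusted p = 0.908), and 0.21 with dye agreement as a covariate (adjusted p = 0.24 in that fit).

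SRSF9 was the SR protein that passed the test at this step. It was -1.06, -0.80 and -0.39 (lowest, median and highest) at day -14, against -0.47, -0.21 and -0.05 at day -30. The ranges overlapped at their edges, but it fell by 0.51, in 8 of 8 cows (limma, adjusted p = 3.57e-05). With liver in Cy5 alone its change was -0.25 (limma, adjusted p = 0.100). Over the alternative settings the change of SRSF9 ran from -0.77 to -0.08 (limma, adjusted p up to 0.709). The other 8 SR elements did not pass, and SRSF11, with the widest spread among cows (within-group SD 0.757), ranged from -2.46 to -0.09 at day -14 and from -2.04 to -0.58 at day -30.

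Among the hnRNP proteins 2 elements rose and 3 fell. HNRNPL, which binds CA-rich RNA, was -0.09, 0.25 and 1.25 at day -14, against -0.69, -0.42 and 0.04 at day -30. It rose in 8 of 8 cows, by 0.74 ± 0.18 (SE; limma, adjusted p = 0.0015). SYNCRIP-b rose by 0.66 (limma, adjusted p = 4.89e-04; 7 of 8 cows). HNRNPA0-a was -0.99, -0.63 and -0.52 at day -14, against -0.37, -0.12 and 0.31 at day -30, with no overlap. HNRNPA0 binds AU-rich mRNA, and this element fell by 0.62 in 8 of 8 cows (limma, adjusted p = 7.61e-05). HNRNPDL-b fell by 0.46 (limma, adjusted p = 0.00956; 8 of 8 cows), and SYNCRIP-c fell by 0.43 (limma, adjusted p = 0.00681; 7 of 8 cows; 0.01 with arrays scaled to one spread). Over the alternative settings HNRNPA0-a changed by -0.69 to -0.19 and HNRNPDL-b by -0.71 to -0.04 (limma, adjusted p up to 0.348 and 0.876).

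Elements of the same gene often differed in their course over the days, so a gene's course was not settled by 1 element. HNRNPA0-a and HNRNPA0-b had opposite courses: HNRNPA0-a had day means of -0.16, -0.10, -0.71, -0.57, -0.49, -0.12 and -0.26, and HNRNPA0-b of -0.85, -0.71, -0.44, -0.40, -0.48, -1.02 and -0.99. Their day means correlated at r = -0.83 over 7 days, and both passed the F test. HNRNPDL-b, the element above 0, ran against HNRNPDL-a in the same way (r = -0.84 over the 7 day means). HNRNPDL-a and HNRNPDL-c, in contrast, rose and fell together within diet-by-day groups (r = 0.89 over 53 cow-days). For SYNCRIP the pairing depended on the level compared. Over cow-days within groups SYNCRIP-d followed SYNCRIP-a (r = 0.88) and not SYNCRIP-b (r = -0.37). Over the day means SYNCRIP-d correlated at 0.33 with SYNCRIP-a and 0.84 with SYNCRIP-b. SF3B1-a and SF3B1-c likewise correlated at 0.96 within groups but at 0.36 over the day means. Elements that moved alike at both levels included DDX5-a and DDX5-b (0.88 within groups and 0.97 over day means), PRPF6-a and PRPF6-b (0.85 and 0.92) and the HNRNPA2B1 elements (0.84 and 0.96). Others were HNRNPDL-a and HNRNPDL-c (0.89 and 0.79), the LSM8 elements (0.79 and 0.75), and SF3B1-a and SF3B1-b (0.77 and 0.72). Spotted cDNA can bind transcripts of paralogous genes too, and the sources used here do not say which transcripts an element detects.

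**Figure D2:**
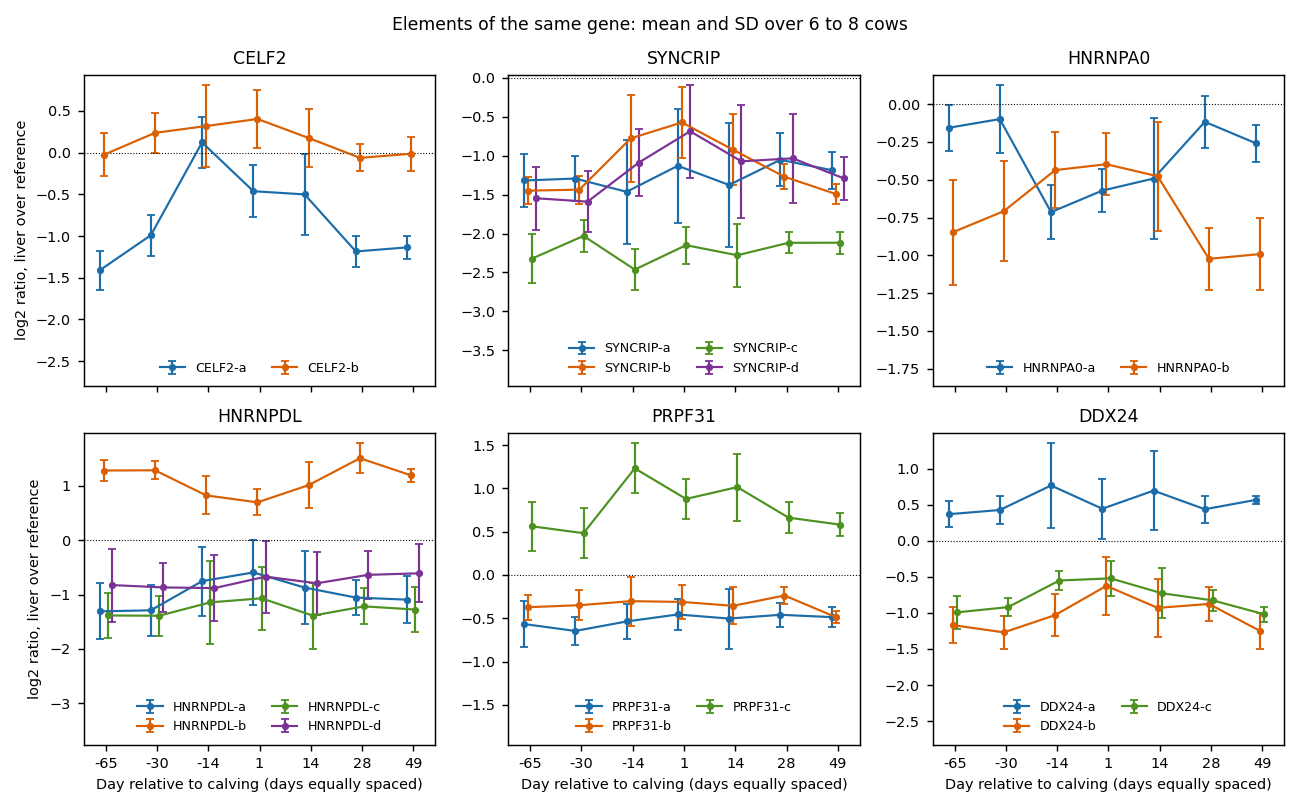
Mean log2 ratio of liver over reference with SD over 6 to 8 cows (vertical axis) by day relative to calving (horizontal axis) for the elements of 6 genes. HNRNPA0-a and HNRNPA0-b run in opposite directions, and CELF2-a, PRPF31-c and HNRNPDL-b differ in level or course from the other elements of their genes.

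Between day 14 and day 28, CELF2-a, SRSF9, HNRNPA0-a and HNRNPDL-b moved again, each with the opposite sign to its change in the late dry period. At day 28, 3 elements were higher and 2 lower than at day 14 (limma), where 3.71% of all elements were higher and 4.91% lower. CELF2-a was -1.43, -1.23 and -0.90 at day 28, against -1.10, -0.63 and 0.52 at day 14. The ranges overlapped, and it fell by 0.68, in 7 of 8 cows (limma, adjusted p = 0.00168). SRSF9 was -0.45, -0.38 and -0.23 at day 28, against -1.08, -0.74 and -0.27 at day 14, and it rose by 0.37 in 7 of 8 cows (limma, adjusted p = 0.00535). Without centring of the arrays, which moved the median of all elements to -0.44, 0 elements were higher and 18 lower, and SRSF9 and HNRNPA0-a differed by -0.10 and -0.10. With scaling of the arrays to one spread, 3 were higher and 9 lower. Of all 8061 elements, 35 were higher and 2516 lower without centring, and 742 were higher and 907 lower with scaling.

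The hnRNP elements with opposite courses also parted at this step. HNRNPA0-b averaged -1.02 (range -1.34 to -0.75) at day 28, against -0.48 (range -1.05 to 0.03) at day 14. It fell by 0.55, in 8 of 8 cows (limma, adjusted p = 0.0127), and differed by 0.04 with liver in Cy5 alone. HNRNPA0-a rose by 0.37 (limma, adjusted p = 0.0305; 7 of 8 cows) and HNRNPDL-b by 0.49 (limma, adjusted p = 0.0176; 6 of 8 cows). In the opposite direction to the earlier step, 3 of 4 hepatocyte marker elements and 5 of 9 endothelial elements were higher and 4 of 9 stellate cell and fibroblast elements lower at day 28 than at day 14. Of 15 macrophage elements 3 were higher and 1 lower, and the 1 neutrophil element was lower (mean 1.21 at day 28 and 1.95 at day 14). The part of these markers was not tested. The count of 5 depended on single cows: it was 10 without restricted cow 6952, 2 without restricted cow 7105 or ad libitum cow 7161, and 3 without restricted cow 6877 or 7045 or ad libitum cow 6886. Of all elements, 13.7% were called without cow 6952 and 5.16% to 6.42% without any of those other cows. None of the 5 passed with liver in Cy5 alone, and 4 passed in Cy3 alone. Without the 7 cow-days of low dye agreement the count was 2, and with agreement as a covariate it was 1. These settings called 4.03% and 4.66% of all elements, against 8.62% in the main fit.

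The remaining steps between days called none of the 85 elements (limma). At day -30 against day -65 the smallest p belonged to CELF2-a (0.44, adjusted p = 0.337), DDX50 (0.41) and SYNCRIP-c (0.32) among higher values and to HNRNPK (-0.30), LSM4 (-0.23) and PRPF8 (-0.15) among lower values. At this step 3 of the 85 (3.53%) had an unadjusted p under 0.05, against 7.69% of all elements, and after adjustment 0.0992% of all elements were called higher and 0.0124% lower. Across calving, 11 elements (12.9%) had an unadjusted p under 0.05, against 9.86% of all elements, and after adjustment 0.298% of all elements were called higher and 0.0992% lower. At day 1 against day -14, CELF2-a differed by -0.58 (adjusted p = 0.0605), PRPF31-c differed by -0.35 and DDX24-a by -0.32, while DDX24-b differed by 0.41, HNRNPAB by 0.28 and LSM6, a subunit of both LSM rings, by 0.28. At day 14 against day 1, 10 elements (11.8%) had an unadjusted p under 0.05, against 10.2% of all elements, and after adjustment 0.0992% of all elements were called higher and 0.608% lower. LSM12 differed by -0.42 (adjusted p = 0.0855), SNRPD3 by -0.37 and SYNCRIP-b by -0.35. Among higher values the smallest p belonged to HNRNPDL-b, DDX24-a and LSM14B (0.14), and the largest rise of the 85 was 0.32. None of these differences passed the test.

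At day 49 against day 28 the array as a whole was nearly still, with 0.0124% of elements called higher and 0% lower. Of the 85 elements 7 (8.24%) had an unadjusted p under 0.05, against 7.21% of all elements. Among the 7 were DDX24-b (-0.42), SF3B4 (-0.34) and DDX19B (-0.33), with adjusted p from 0.52 to 0.573 (limma). Among higher values the smallest p belonged to DDX6, DDX1-a and SNRPD2 (0.26), and the largest rise of the 85 was 0.36. Day 28 and day -30, both days of close dye agreement, were compared directly as lactation against the dry period, and 0.261% of all elements were higher and 0.0868% lower. None of the 85 was called, and 8 (9.41%) had an unadjusted p under 0.05, against 15.8% of all elements. The smallest p among higher values belonged to SNRPD3 (0.36, adjusted p = 0.138), DDX24-b (0.39) and SNRPA (0.43), and among lower values to HNRNPA0-b (-0.32), CELF2-b (-0.30) and DDX56 (-0.20). In a fit of the days of close agreement alone this comparison called 6 elements, 5 higher and 1 lower, and 13.4% of all elements.

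Feeding level in the dry period was compared with 1 value per cow. Before calving (the mean of days -30 and -14) none of the 85 elements was called between ad libitum and restricted cows (limma), as was the case for the whole array (0% higher, 0% lower). Unadjusted p was under 0.05 for 9 elements (10.6%), against 12.9% of all elements. The smallest belonged to SYNCRIP, an hnRNP protein that binds mRNA in nucleus and cytoplasm. SYNCRIP-a was -1.10, -1.12, -0.95 and -0.90 in ad libitum cows, against -1.63, -1.77, -1.47 and -2.09 in restricted cows, without overlap (difference 0.72, adjusted p = 0.284). SYNCRIP-d gave 0.60 and SYNCRIP-b -0.53 (adjusted p = 0.284 and 0.303), so the elements of this gene differed in sign here as well. SF3B6, the SF3b subunit at the branch site, was -0.48, -0.41, -0.43 and -0.30 in ad libitum cows and -0.84, -0.82, -0.64 and -0.97 in restricted cows (difference 0.41, adjusted p = 0.303). Among lower values the smallest p belonged to SYNCRIP-b, DDX51 and DDX54.

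After calving (the mean of days 1, 14 and 28), 12 elements were higher in cows that had been fed ad libitum than in restricted cows and none was lower (limma, adjusted p under 0.05). Across the array 9.75% of elements were higher and 0.608% lower, so the share of 14.1% lies near the background. The median difference over the 85 elements was -0.04, and over all elements -0.06. The 12 came from 7 of the roles, namely 4 of 13 other DDX helicases, 1 of 11 helicases listed as tied to splicing or mRNA export, 2 of 8 PRPF, 2 of 22 hnRNP, 1 of 4 SNRP, 1 of 9 SR and 1 of 9 SF3 and U2AF elements. No LSM or CELF2 element was called.

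DDX21, a nucleolar helicase of ribosomal RNA processing, showed the largest difference. It was -0.06, -0.19, 0.02 and -0.19 in ad libitum cows, against -0.74, -0.91, -0.96 and -0.85 in restricted cows. The groups did not overlap and differed by 0.76 ± 0.10 (SE, n = 4 each; limma, adjusted p = 0.001). PRPF6-b was 0.10, -0.03, 0.32 and 0.15 in ad libitum cows, against -0.51, -0.52, -0.83 and -0.60 in restricted cows (difference 0.75 ± 0.12; limma, adjusted p = 0.00147). SNRPD2, of the Sm ring, was -0.22, -0.45, -0.05 and -0.21 in ad libitum cows, against -0.82, -0.77, -0.95 and -0.89 in restricted cows (difference 0.63; limma, adjusted p = 0.00304).

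The other 9 differences lay between 0.36 and 0.64. U2AF2, which binds the polypyrimidine tract, averaged -0.08 ± 0.15 in ad libitum cows and -0.72 ± 0.12 in restricted cows (SD, n = 4 each). DDX6, a helicase of P bodies and mRNA decay, averaged 0.06 in ad libitum cows and -0.58 in restricted cows, and DDX1-a, of the tRNA ligase complex, -0.06 in ad libitum cows and -0.69 in restricted cows. DDX41, a helicase of the catalytic spliceosome, averaged 0.02 in ad libitum cows and -0.49 in restricted cows. The remaining differences were 0.51 for DDX24-a, 0.51 for HNRNPU-b, 0.41 for SRSF7-a, 0.41 for PRPF6-a and 0.36 for HNRNPAB. In each of the 12 the lowest ad libitum cow was above the highest restricted cow, as the plot of single cows shows. Over all 85 elements the cows of both diets were separate in 15 with ad libitum higher (17.6%) and in 2 with ad libitum lower (2.35%), against 12.1% and 3.96% of all tested elements.

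**Figure D3:**
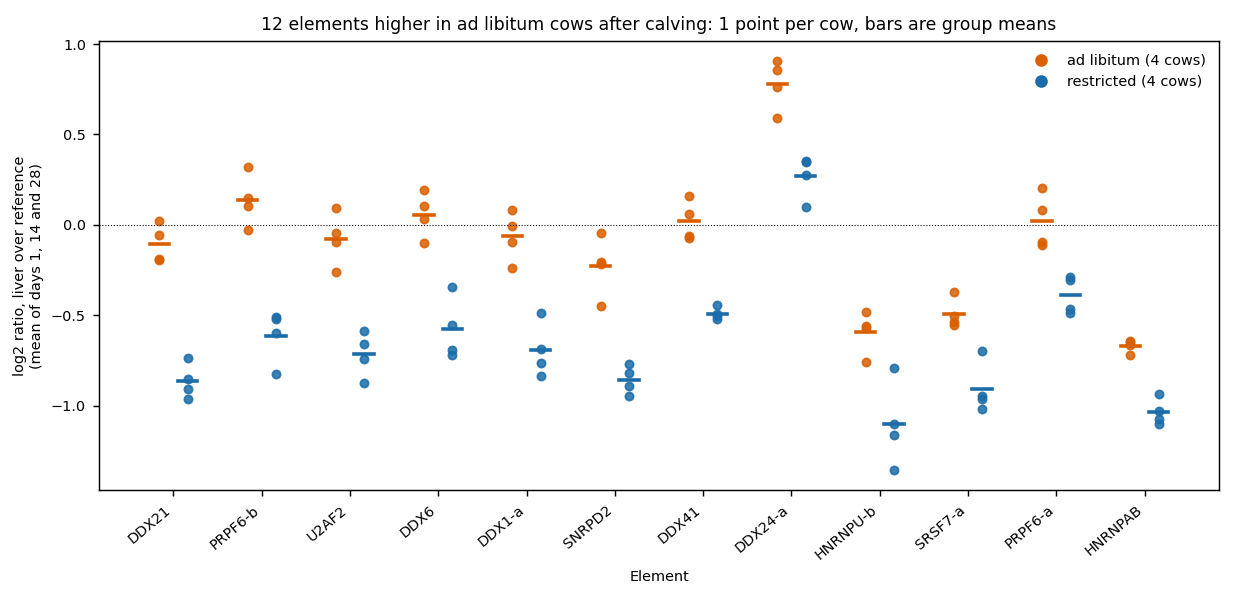
Log2 ratio of liver over reference, mean of days 1, 14 and 28, for each cow and each of the 12 elements called between feeding levels after calving, with bars at the means of 4 cows. Points of ad libitum and restricted cows do not overlap in any of the 12, and the difference is largest for DDX21 (0.76).

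Elements of the same gene did not all share this difference. DDX24-a differed by 0.51 but DDX24-b by -0.39 and DDX24-c by -0.10, DDX1-a by 0.63 but DDX1-b by -0.22, HNRNPU-b by 0.51 but HNRNPU-a by -0.13, and SRSF7-a by 0.41 but SRSF7-b by -0.10. None of the elements with a negative difference here passed the test. Both PRPF6 elements were among the 12.

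The difference between feeding levels came from days 1 and 14. By day, the median difference of the 12 elements (ad libitum minus restricted) was 0.02, -0.03, 0.35, 0.73, 0.94, 0.03 and -0.01 on days -65 to 49. At day 14, 12 of 12 were higher in ad libitum cows, by 0.62 to 1.21, and at day 28, 7 of 12 were higher and the 12 differences ranged from -0.06 to 0.23. The other 73 elements had medians of -0.19 at day 1 and -0.05 at day 14. DDX21 averaged 0.12 in ad libitum cows and -1.07 in restricted cows at day 14, and -0.35 in ad libitum cows and -0.37 in restricted cows at day 28. These days were chosen from the values of the 12 elements, so they are given as a description.

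**Figure D4:**
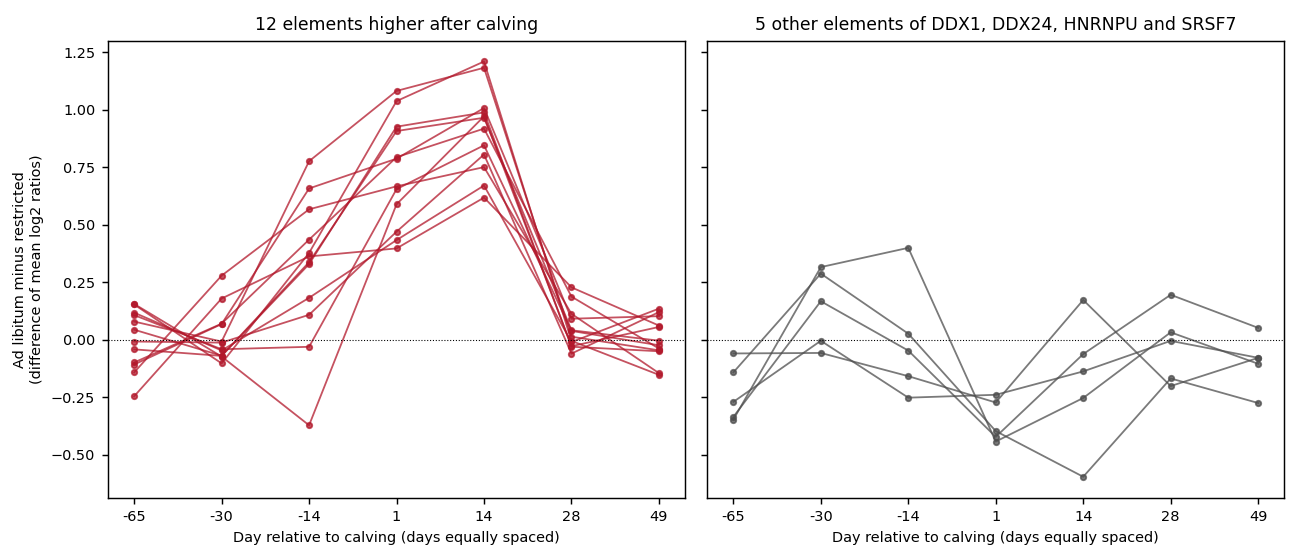
Difference between mean log2 ratios of ad libitum and restricted cows (vertical axis, ad libitum minus restricted) by day relative to calving (horizontal axis), a line for each element: left, the 12 called after calving, and right, the 5 further elements of DDX1, DDX24, HNRNPU and SRSF7. The 12 lie at 0.62 to 1.21 at day 14 and at -0.06 to 0.23 at day 28.

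The gap between dye orientations was wide in these 12 elements, taken over the cows of both diets together. On days -14, 1 and 14 the ratio with liver in Cy5 exceeded that with liver in Cy3 by a median of 1.04 in the 12 elements, 0.51 in the other 73 and 0.17 over all elements, and on the other days by 0.26, 0.20 and 0.12. The medians over the 786 elements of the array called higher in ad libitum cows after calving were 0.95 and 0.15, respectively. Without the 7 cow-days of low agreement none of the 12 was called, although 12 of 12 still lay above 0 (median 0.37), and with day 28 alone none was called either. In both settings 0% of all elements were called. Leaving out those cow-days also changed which days were averaged for a cow, and restricted cow 7045 kept day 28 alone. That setting therefore does not separate dye agreement from the day. Without centring of the arrays 2 were called. Liver in Cy3 alone called 3 elements (median difference of the 12, 0.54), and liver in Cy5 alone called 8 of the 12 (median 0.60). Cy5 alone also called 2 further elements lower in ad libitum cows, and scaling of the arrays to one spread called 8 higher and 1 lower. Of all elements, 3.87% were called without centring, 5.27% in Cy3 alone, 9.15% in Cy5 alone and 9.02% with scaling, against 10.4% in the main fit. The part of dye orientation in the difference was not tested further. The means of the hepatocyte markers were 3.50 and 3.72 in ad libitum cows on days 1 and 14, and 3.64 and 4.11 in restricted cows, and none of the 4 elements passed the test of feeding level after calving. Among the other marker lists, 2 of 9 endothelial elements, 2 of 15 macrophage elements and 1 of 6 T and NK cell elements were lower in ad libitum cows, 1 of 15 macrophage elements was higher, and none of 9 stellate cell and fibroblast elements was called. Of 4 proliferation gene elements 1 was higher, and the 1 neutrophil element was not called. Differences lay below 0 in 14 of 15 macrophage and 6 of 6 T and NK cell elements, against 5068 of all 8061 elements. The part of these in the difference was not tested.

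The change across calving (days 1, 14 and 28 minus days -30 and -14) was also compared between feeding levels, and none of the 85 elements was called (limma), with 0% higher and 0% lower over the array. Unadjusted p was under 0.05 for 13 elements (15.3%), against 8.61% of all elements. The smallest belonged to DDX41 (0.55), DDX24-b (-0.54), DDX24-a (0.73) and DDX50 (-0.45), all with an adjusted p of 0.514. DDX41 changed by 0.10, 0.06, 0.32 and 0.32 in ad libitum cows, against -0.68, -0.21, -0.26 and -0.25 in restricted cows, without overlap. HNRNPA2B1-a, an element of a protein that binds many nuclear and exported RNAs, differed by -0.81, but restricted cows alone ranged from 0.12 to 1.43.

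From one cow-day to another, many of these elements rose and fell together, beyond the day and feeding level. After the mean of each diet-by-day group was removed, 253 of 3570 pairs of elements (7.09%) correlated above 0.8 over the 53 cow-days, against 1.12% of pairs among the 7577 elements with complete values. The cow-days share cows, arrays and scaling, and the pairs share samples, so these correlations are a description. The closest pairs were DDX1-a with DDX6 (r = 0.96), SF3B1-a with HNRNPH2 (0.96), HNRNPH3 with SRSF11 (0.96) and U2AF2 with SNRPD2 (0.95).

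Grouping by these correlations (average linkage at 1 - r = 0.4, at least 5 elements) gave a large set of 32 elements from 23 genes. It held the SR proteins SRSF1, SRSF2, SRSF3, SRSF6 and SRSF11 with SRSF7-b and SFRS18. It also held the SF3b subunits SF3B1-a, SF3B1-b, SF3B1-c and SF3B6, the paralogous helicases DDX5 (all of its elements) and DDX17, and hnRNP elements such as HNRNPH2, HNRNPH3, HNRNPK, HNRNPL, HNRNPA2B1-a, HNRNPA2B1-b, HNRNPDL-a, HNRNPDL-c, HNRNPDL-d, SYNCRIP-a and SYNCRIP-d. The median correlation within the set was 0.79. Between separate arrays of a cow-day, an element on one and its partner on the other, it was 0.64, and the same element correlated at 0.76 across the arrays. The lowest set means (deviations from the group) were -0.89 in ad libitum cow 7187 at day 1 and -0.86 in ad libitum cow 7161 at day 14, and the highest was 0.59 in restricted cow 6877 at day 14. The same cow 6877 lay at -0.68 at day -65, so these are deviations of cow-days and not of animals as a whole. None of the 12 elements that differed by feeding level was in this large set.

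A smaller set of 11 elements from 10 genes held U2AF2, SNRPD2, PRPF6-a, PRPF6-b, PRPF31-a, DDX1-a, DDX6, DDX21, DDX24-a, DDX39B-b and DDX41, 9 of which were among the 12 higher in ad libitum cows after calving. Its median correlation was 0.80, but 0.37 between separate arrays of a cow-day, and the same element correlated at 0.43 across the arrays. The SD of its mean was 0.333 on days -14, 1 and 14 and 0.120 on the other days, against 0.434 and 0.261 for the large set. The means of both sets were nearly unrelated (r = -0.02). A set of 5 (DDX54, PRPF31-b, DDX39B-a, SF3B5 and SYNCRIP-b) ran against the large set (r = -0.69). The mean of the large set correlated at -0.54 with the hepatocyte marker mean and at -0.23 with dye agreement, and the smaller set at -0.10 and 0.24. The part of either in the covariation was not tested.

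**Figure D5:**
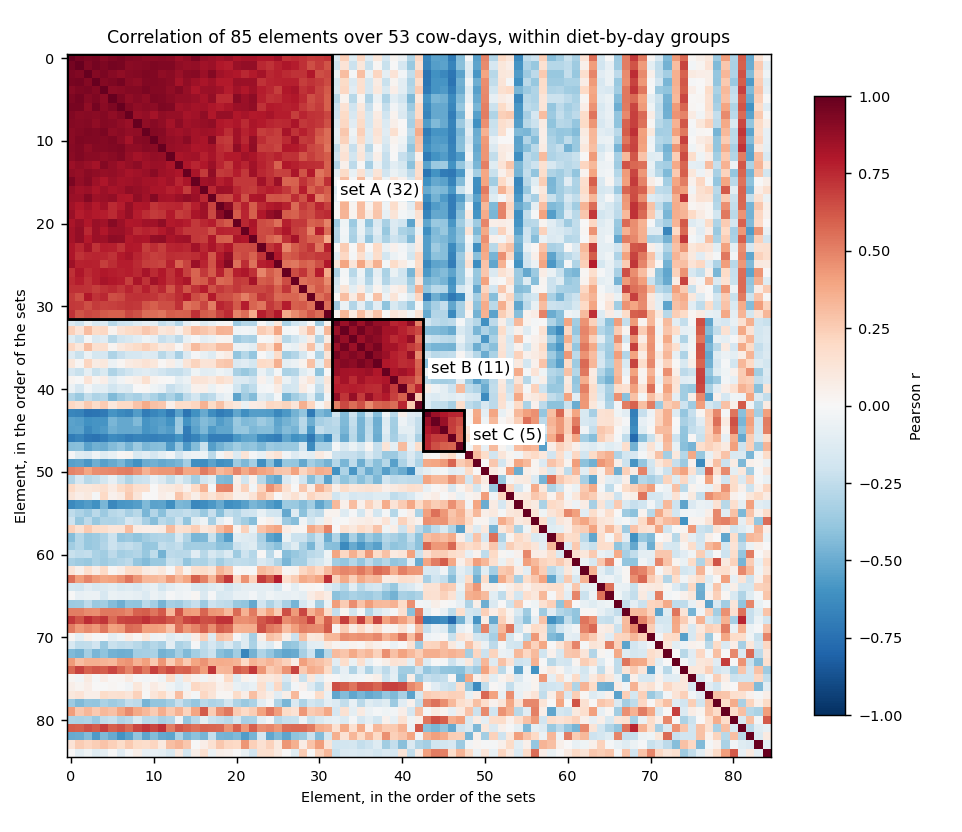
Correlation between the 85 elements (both axes, in the order of the grouping) over 53 cow-days after removal of diet-by-day group means, with the colour scale running from -1 to 1. The frames mark the set of 32 elements (A), the set of 11 (B) and the set of 5 (C), and sets A and B have median correlations of 0.79 and 0.80 inside and r = -0.02 between their means.

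Other genes of the pathway, on a list of splicing factors outside the naming rule, were represented by 98 elements. Over the 7 days 33 of the 98 (33.7%) passed the F test, against 43.4% of all elements. At day -14 against day -30, 22 were higher (22.4%) and 8 lower (8.16%), against 19.5% and 14% of all elements. The 5 of smallest p were PCBP2, a poly(C)-binding protein (0.74), RBM23 (0.64), PTBP1, the polypyrimidine tract-binding repressor of exons (0.76), SART1, a protein of the tri-snRNP (-1.01), and RBFOX2, a regulator of alternative exons (1.42). At day 28 against day 14, 3 were higher (3.06%) and 5 lower (5.10%), against 3.71% and 4.91% of all elements, and RBM23 (-0.48), RBFOX2 (-0.95) and SART1 (0.60) had the opposite sign to the earlier step. In ad libitum cows after calving 11 were higher (11.2%) and 1 lower (1.02%) than in restricted cows, against 9.75% and 0.608% of all elements. The 11 were led by RBM42 (0.84), RBM14 (0.80) and EWSR1 (0.61), and ALYREF, an mRNA export adaptor, was lower (-0.49). In the other comparisons of days and feeding levels, none of the 98 passed (limma, adjusted p under 0.05), and 3 to 16 (3.06% to 16.3%) had an unadjusted p under 0.05, against 7.21% to 15.8% of all elements.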

How the data were processed

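Liver RNA of 8 cows on 7 days was measured on 106 2-colour cDNA arrays, 1 per dye orientation for each of 53 cow-days. Per the labels' protocols, a Scanarray 4000 read the slides and GenePix 4.0 processed the images. The authors deposited a log2 ratio of Cy5 over Cy3 per spot, with 16416 spots per array. The sources used here do not state any background correction or normalization. Array medians as deposited ran from -1.69 to 1.80, so the arrays had not been centred, and 1.23% of spot values were missing. Intensities, and so signal over background, were not used here.

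Titles gave the dye that labelled liver. Ratios were turned to liver over reference, the 2 spots of an element were averaged (median correlation 0.900 over arrays), each array was centred on its median, and the 2 arrays of a cow-day then gave 1 averaged sample. Elements with values from at least 2 cows in each of 14 diet-by-day groups were tested (8061 of 8208). Gene symbols came from the platform annotation, and all 85 members matched RefSeq's gene table for ARS-UCD2.0. No sequences or coordinates are printed.

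Days were compared with limma 3.58.1 (statmod 1.5.0, R 4.3.3) in a fit of 14 group means, the cow being a random block, since the labels name the same cow on several days (estimated correlation 0.0176). Feeding levels were compared with limma on 1 value per cow. Two-sided p-values were adjusted by Benjamini-Hochberg over all tested elements of a comparison and a threshold of 0.05. The number of cows limits the precision. The script was tested on simulated data. In each comparison members past the threshold are named, up to 10 per direction by size of change (all 12 for feeding level after calving). Where none passed, the 3 of smallest p per direction are named, most of them with values. For other splicing genes the 5 of smallest p past the threshold are named, and ALYREF was added after its value was seen. The members and gene lists were chosen with earlier results of these data known. Alternatives covered the centring, scaling, dye orientation, missing values, agreement of orientations, the cow block and leaving out each cow. The fits on some of the days only were added after seeing the data.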

Additional observations from a re-analysis of the deposited data

Results flagged for a closer look

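Of 218 groups of samples examined for the elements described in detail (182 day groups and 36 groups of cows in the comparisons of feeding level), 11 held a value far from the rest by Dixon's ratio, a rule by which chance flags about 1 in 20 groups. The values are log2 ratios of liver over reference. Restricted cow 7105 was low for DDX5-a (-2.28) and SRSF7-a (-1.42) at day -14 and for SRSF6 (-0.98) at day 28. Restricted cow 6952 was high for HNRNPA0-a at day 14 (0.44) and for PRPF6-b at day 49 (0.56), and low for PRPF4B-b at day 1 (-1.08). Restricted cow 7045 was high for DDX24-c at day 1 (-0.014) and for SNRPD3 at day -65 (0.15). Among ad libitum cows, 7187 was low for CELF2-b at day 49 (-0.43), 7161 was low for DDX19B at day 28 (-1.11), and 6886 was high for SNRPD3 at day 28 (0.96), where the next cow was at 0.06.

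In 8 of 343 steps examined, every ad libitum cow moved one way and every restricted cow the other. At day 28 against day 14, mean changes were -0.36 in ad libitum cows and 0.44 in restricted cows for DDX39B-b, -0.33 and 0.48 for DDX41, -0.47 and 0.70 for DDX21, -0.76 and 0.24 for DDX24-a, -0.33 and 0.53 for PRPF6-a, -0.30 and 0.92 for PRPF6-b, and -0.26 and 0.45 for PRPF8, in the same order of diets. At day -30 against day -65, SNRPA changed by 0.12 in ad libitum cows and by -0.18 in restricted cows. None of these 8 differences between feeding levels was tested. The steps examined were those of elements named or described in detail, which include the 12 called for feeding level after calving. DDX41, DDX21, DDX24-a, PRPF6-a and PRPF6-b are among the 12, and that comparison used days 14 and 28. Their opposite moves are therefore not a separate result. The share of such steps over all elements was not counted.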

How the results depend on the processing

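Counts are of the 85 elements past the threshold. The F test over days called 30, but 53 without centring, 46 with arrays scaled to one spread, 13 with dye agreement as a covariate and 7 on days -65, -30, 28 and 49 alone (20 to 30 when single cows were left out). Over all elements these settings called 43.4%, 59.0%, 52.1%, 18.5% and 10.3%, in that order. Day -14 against day -30 called 16, but 35 without centring, 28 with scaling, 30 with liver in Cy3 alone and 26 in Cy5 alone (12 to 24 without single cows). The shares of all elements were 33.5%, 42.9%, 37.6%, 40.6% and 28.5%, in that order. Day 28 against day 14 called 5, but 18 without centring, 12 with scaling, 19 in Cy3 alone, 2 in Cy5 alone, 2 without low-agreement cow-days and 1 with the covariate (2 to 10 without single cows). The shares of all elements were 8.62%, 31.6%, 20.5%, 28.7%, 2.53%, 4.03% and 4.66%, in that order. Feeding level after calving called 12, but 2 without centring, 3 in Cy3 alone, 0 without low-agreement cow-days and 0 on day 28 alone (8 to 13 without single cows). The shares of all elements were 10.4%, 3.87%, 5.27%, 0% and 0%, in that order. Leaving out low-agreement cow-days also changed which days were averaged for a cow. Day 1 against day -14 called 1 with the covariate (0 to 1 without single cows, as for day 14 against day 1), and the fit of 4 days alone called 2 at day -30 against day -65, 6 at day 28 against day -30 and 2 at day 49 against day 28. Of all elements, the covariate fit called 0.323%, and the fit of 4 days called 1.03%, 13.4% and 4.12%. With no replicate block the counts over days and at the called steps were 30, 16 and 5, with a fixed replicate block 31 (29 of the 30 among them), 16 and 5. Among all elements 42.4%, 32.9% and 8.25% passed with no block, and 43.1%, 33.4% and 8.51% with a fixed block. A by-day fit of feeding level with the cow as block called 16 after calving, 15 higher and 1 lower in ad libitum cows, and 14.6% of all elements.

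Values that changed sign were SYNCRIP-c at day -14 against day -30 (0.0102 with scaling) and SNRPD2 at that step (0.0800 in Cy5 alone). LSM14B at day 14 against day 1 was -0.0712 without centring and -0.0518 in Cy3 alone. At day 28 against day 14, SRSF9 (-0.10) and HNRNPA0-a (-0.10) did so without centring and HNRNPA0-b (0.0362) in Cy5 alone. At day 49 against day 28, DDX19B (0.0792) and SF3B4 (0.0801) did so without centring, which moved the median of all elements by over 0.1 there (to 0.34), to -0.23 at day 14 against day 1, and to -0.15 at day 28 against day -30. For feeding level on day 28 alone, PRPF6-b was -0.0047, SNRPD2 -0.0301, DDX24-a -0.0278, HNRNPAB -0.0098 and PRPF6-a -0.0600. The cause was not tested. Over all elements, day 28 against day 14 called 695, but 2551 without centring, 2338 in Cy3 alone and 206 in Cy5 alone, and feeding level after calving called 835, but 312 without centring, 429 in Cy3 alone and 0 without low-agreement cow-days.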
